A study of Homo sapiens with 8 samples.

Results

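The genes examined were those for the nuclear-encoded subunits of the 5 oxidative phosphorylation complexes, 79 of the 19775 genes measured. They were chosen by symbol: NDUFA, NDUFB, NDUFC, NDUFS and NDUFV genes for complex I, SDHA to SDHD for complex II, UQCR genes and CYC1 for complex III, COX4 to COX8 genes for complex IV, and ATP5 genes for complex V. Complex I had 32 of them, complex II 3, complex III 7, complex IV 18 and complex V 19, and each gene was read by its brightest probe set that names only that gene. COX6A1P1 and ATP5MC2P1 are pseudogenes, which leaves 77 protein-coding genes. SDHB, NDUFS5, NDUFS8, NDUFC2, UQCRFS1, UQCRH, UQCRHL and ATP5MGL also match the symbols but were not analysed here.

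RNA came from 4 groups of 2 Affymetrix arrays: MDA-MB-231 cells with an shRNA against XBP1 (shXBP1), MDA-MB-231 cells with a control shRNA (shCtrl), T47D cells with shXBP1 and T47D cells with shCtrl. Both are established human breast cancer lines, MDA-MB-231 of mesenchymal and T47D of luminal character. All 4 groups carried a lentiviral hairpin, were kept in puromycin at 2 µg/ml, and were held without glucose at 0.1% oxygen for 24 h, so every value below is a level under combined oxygen and glucose deprivation. The number of hairpins per gene is not given, and 2 lines cannot stand for 2 classes of breast cancer. The labels call the replicates biological but do not say that they were separate cultures, so p-values here gauge the spread among these arrays alone, and that spread may be technical.

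Oxidative phosphorylation passes electrons from NADH through complex I, and from succinate through complex II, to ubiquinone, then through complex III and cytochrome c to complex IV, which reduces oxygen to water. Complexes I, III and IV pump protons across the inner mitochondrial membrane, and complex V, the ATP synthase, uses their return to make ATP. All subunits of complex II are encoded in the nucleus, whereas the other complexes also hold subunits encoded in mitochondrial DNA. XBP1 encodes a transcription factor that acts in the unfolded protein response once the sensor IRE1 splices its mRNA.

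XBP1 itself stood at 7.13 and 6.69 on the log2 scale in MDA-MB-231 shXBP1 cells, against 10.83 and 10.69 in MDA-MB-231 shCtrl cells. In T47D it stood at 7.52 and 7.16 in shXBP1 cells, against 12.41 and 12.56 in shCtrl cells. The targeted transcript was thus lower on every shXBP1 array than on any shCtrl array of its line. XBP1 fell by 3.85 in MDA-MB-231 (adjusted p = 6.93e-05) on the log2 scale, and its T47D difference was -5.15 (adjusted p = 8.68e-06; limma). All 12 luminal markers were lower in MDA-MB-231 shCtrl cells than in T47D shCtrl cells, and of 10 mesenchymal markers 8 were higher and 1 lower. The 5 leukocyte markers measured lay between 3.75 and 6.38 on all 8 arrays, where the median of all probe sets was 5.90, and none was called in any of the 5 comparisons (limma). Differences in log2 level between arrays of 1 probe set are compared below. Levels of different genes are not set against each other, since probe sets differ in how brightly they bind. The normalisation gave all 8 arrays nearly the same distribution, so a fall is relative to the other transcripts, and in bulk RNA fewer cells with a transcript cannot be told apart from less of it per cell.

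With XBP1 knocked down in T47D, 36 of the 79 subunit genes fell (45.6%) and 2 rose, where 13.5% of all 19775 genes fell and 15.5% rose (limma, adjusted p under 0.05 over all genes). Most subunit genes are bright, with 71 of the 79 at a mean level of 7 or more. In a fit of only the 9849 genes at that level, 28.2% fell and 30.3% rose. The 36 falls lay in every complex: 17 of 32 genes of complex I, 2 of 3 of complex II, 5 of 7 of complex III, 4 of 18 of complex IV and 8 of 19 of complex V. They were moderate in size, with differences over the 79 genes between -0.96 and 0.91 and a median of -0.25, against a median of -0.02 over all genes. The log2 difference was negative in 73 of the 79, and in 67 the 2 shXBP1 arrays and the 2 shCtrl arrays did not overlap, as they did not for 64.1% of all genes. The strongest falls were those of NDUFA7 and NDUFV2 of complex I and of ATP5F1D and ATP5F1A of complex V. The count depends on the T47D arrays: without shXBP1 replicate 1 or 2 it was 17 and 21 genes, and without shCtrl replicate 1 or 2 it was 21 and 19. The share of all genes that fell was then 8.76%, 9.07%, 10.5% and 9.53% in the same order. The calls of SDHC, COX8A, UQCR11, COX6A1 and ATP5MC3 were lost whichever of the 4 T47D arrays was left out, while NDUFA7 passed under all 16 alternatives, with differences between -1.04 and -0.43.

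Markers of the lines moved with the knockdown too. In T47D, 6 of the 12 luminal markers fell (XBP1, TFF1, KRT8, KRT18, KRT19 and SPDEF) and 2 rose (PGR and ESR1), and of the 10 mesenchymal markers 3 fell and 1 rose (limma). Summed over the luminal markers other than XBP1, the log2 level was 16.89 and 16.87 in T47D shXBP1 cells, against 17.34 and 17.35 in T47D shCtrl cells, and the mesenchymal sum was 10.41 and 10.38 against 10.85 and 10.84. In MDA-MB-231, 2 luminal markers fell and 2 rose, with sums of 15.36 and 15.28 in shXBP1 cells, against 14.96 and 14.99 in shCtrl cells, and of the mesenchymal markers 1 fell and 2 rose, with sums of 15.67 and 15.62 against 15.48 and 15.47. Their part in the subunit differences was not tested.

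In MDA-MB-231 the same comparison called 8 subunit genes lower (10.1%) and 1 higher, where 6.68% of all genes fell and 10.6% rose. In a fit of only the genes with a mean level of 7 or more, 17.6% fell and 23.1% rose. That fit called 20 of the 71 subunit genes at that level lower and 2 higher. The 8 subunit genes that fell were NDUFS7, NDUFA2, NDUFA7, NDUFB6 and NDUFA6 of complex I, SDHD of complex II, UQCR10 of complex III and COX8A of complex IV, and none of complex V. NDUFB3, an accessory subunit of complex I, rose. The median difference was -0.11, against 0.03 over all genes, and 59 of the 79 differences were negative. The call count is fragile: it was 0 without MDA-MB-231 shCtrl replicate 2, or when the 4 MDA-MB-231 arrays were fitted alone, and 22 when each array was centred on its median, where 4.96%, 3.42% and 11.1% of all genes fell. It was 2 without shCtrl replicate 1 (3.67% of all genes) and 3 without shXBP1 replicate 1 or 2 (3.93% and 6.15%). It was 5 without either T47D shCtrl array (5.60%) and 2 without either T47D shXBP1 array (4.94%).

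Of the genes that fell in MDA-MB-231, 6 also fell in T47D, which is 75.0% of the 8 and 16.7% of the 36. They were NDUFS7, NDUFA2, NDUFA7, NDUFB6, COX8A and UQCR10, each by its brightest probe set. A dimmer probe set gave 0.26 for NDUFA2 and -0.01 for NDUFB6 in T47D, and 0.01 for NDUFS7 in MDA-MB-231, none of them called. That of NDUFA7 is given below. The probe sets of UQCR10 were negative in both lines, and COX8A has only 1. NDUFB3 was called in opposite directions in the lines. Across the 79 genes the T47D difference lay below the MDA-MB-231 one in 62, and the correlation of both sets of differences was 0.30 (Pearson, n = 79 genes measured on the same arrays, given as a description).

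**Figure D1:**
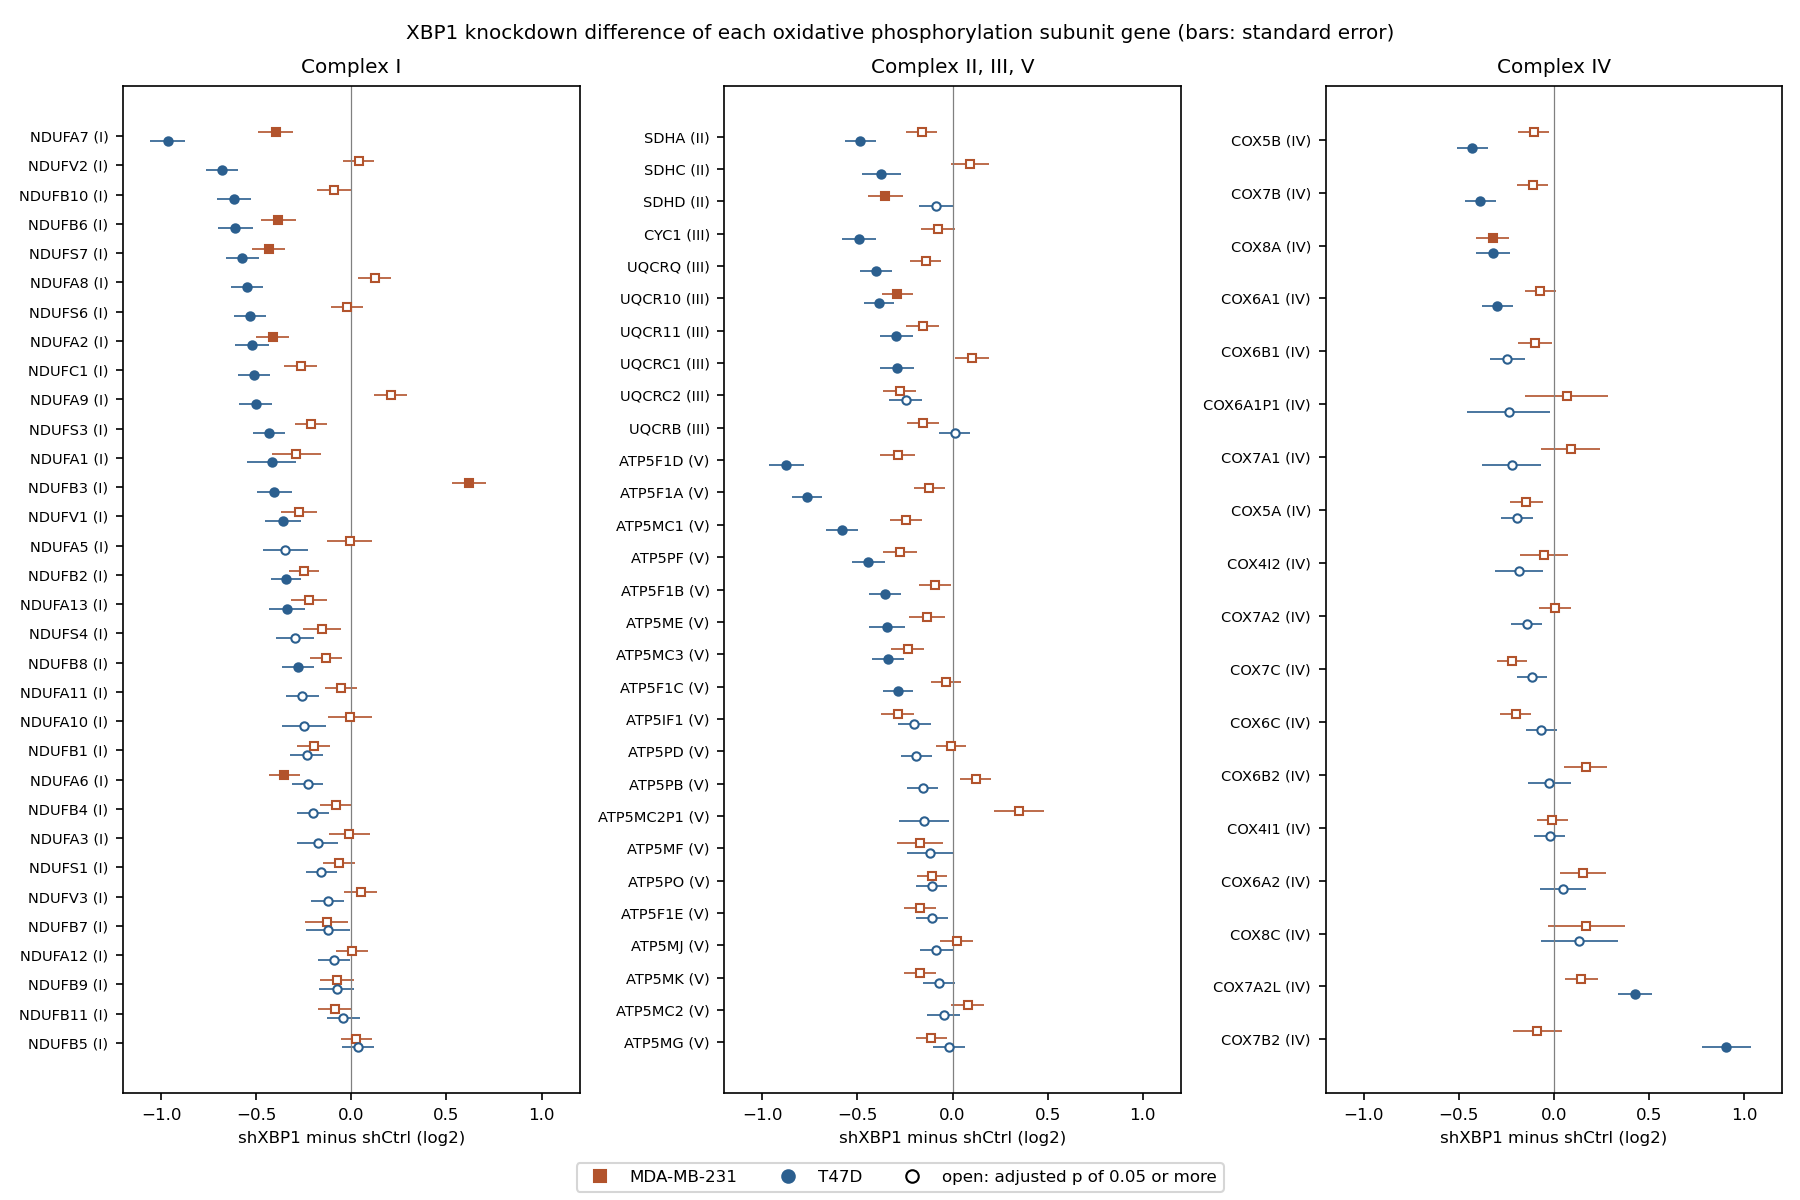
Log2 difference of shXBP1 minus shCtrl for each subunit gene, by complex, in MDA-MB-231 (squares) and T47D (circles), with standard errors; filled symbols have an adjusted p under 0.05. The T47D values lie left of 0 for 73 of 79 genes, down to -0.96 for NDUFA7, while NDUFB3 stands on opposite sides of 0 in the lines at 0.62 and -0.40.

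Promoter sequences are shown for 4 genes that fell in T47D or differed most between the lines and hold a motif searched, and for ATP5PF. NDUFA7, ATP5MC1, NDUFA8 and NDUFA9 met that rule. ATP5PF was added after the motifs were seen, as the only subunit gene whose window held the NRF1, ETS and YY1 motifs together. Its window lies wholly inside the annotated gene, whose 5' end is at chr21:25735653, and so belongs to an internal start. The capitals mark exact matches to 5 motifs: GCGCATGC for NRF1, CCGGAAG for the ETS factors that include GABP, AAGATGGCG for YY1, TGACGTGG for the unfolded protein response element that XBP1 binds, and ACGTG for the core of the hypoxia response element. NRF1, GABP and YY1 are known regulators of respiratory chain genes. Both strands were searched, the core ACGTG lies within every TGACGTGG match, and CACGT is ACGTG read on the other strand. Each window runs 250 bases before to 50 bases after the RefSeq transcription start (GRCh38.p14): NDUFA7 chr19:8321326-8321625, minus strand; ATP5MC1 chr17:48892537-48892836, plus strand; NDUFA9 chr12:4648864-4649163, plus strand; NDUFA8 chr9:122159730-122160029, minus strand; ATP5PF chr21:25735005-25735304, minus strand.
NDUFA7: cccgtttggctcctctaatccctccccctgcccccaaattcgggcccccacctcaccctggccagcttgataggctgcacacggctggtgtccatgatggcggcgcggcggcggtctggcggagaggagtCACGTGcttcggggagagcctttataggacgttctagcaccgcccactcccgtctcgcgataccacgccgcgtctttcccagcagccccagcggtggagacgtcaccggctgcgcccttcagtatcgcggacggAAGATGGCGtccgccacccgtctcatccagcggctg
ATP5MC1: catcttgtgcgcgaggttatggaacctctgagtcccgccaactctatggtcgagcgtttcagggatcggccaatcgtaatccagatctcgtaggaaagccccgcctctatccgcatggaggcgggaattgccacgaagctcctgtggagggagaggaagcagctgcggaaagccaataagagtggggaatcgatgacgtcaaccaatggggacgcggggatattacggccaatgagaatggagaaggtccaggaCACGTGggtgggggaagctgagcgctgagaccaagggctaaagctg
NDUFA9: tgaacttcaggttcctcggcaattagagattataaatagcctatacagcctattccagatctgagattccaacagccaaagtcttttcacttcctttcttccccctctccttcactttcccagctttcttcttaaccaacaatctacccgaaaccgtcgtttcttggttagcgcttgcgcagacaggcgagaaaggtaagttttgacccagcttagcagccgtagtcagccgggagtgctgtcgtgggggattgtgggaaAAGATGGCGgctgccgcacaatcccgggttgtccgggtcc
NDUFA8: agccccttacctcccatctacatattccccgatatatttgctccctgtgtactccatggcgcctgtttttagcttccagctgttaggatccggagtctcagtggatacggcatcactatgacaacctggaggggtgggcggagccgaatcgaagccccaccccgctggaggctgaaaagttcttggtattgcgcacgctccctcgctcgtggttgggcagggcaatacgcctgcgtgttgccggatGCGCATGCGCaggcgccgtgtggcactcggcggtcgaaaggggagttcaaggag
ATP5PF: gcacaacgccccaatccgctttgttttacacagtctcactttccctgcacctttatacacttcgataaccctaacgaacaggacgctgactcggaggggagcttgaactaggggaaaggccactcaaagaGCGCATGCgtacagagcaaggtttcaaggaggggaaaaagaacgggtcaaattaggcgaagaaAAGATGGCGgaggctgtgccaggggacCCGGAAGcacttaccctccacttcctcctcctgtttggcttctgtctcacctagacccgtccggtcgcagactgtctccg

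Positions count from the transcription start, with negative values upstream of it. In the NDUFA7 window the YY1 match began at position 14, and the hypoxia core began at -119 on the plus and at -120 on the minus orientation of the window. In ATP5MC1 the match was the hypoxia core, at 5 and 4 in the 2 orientations. In NDUFA9 the YY1 match began at 10. NDUFA8 held the NRF1 motif in both orientations, in overlapping matches that began at -4 and -2. In ATP5PF the NRF1, YY1 and ETS matches began at -120, -57 and -30.

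A RefSeq window was found for 65 of the 79 genes. The 27305 genes with a window had 35116 windows in all, and only the first listed for each gene was searched. The NRF1 motif lay in 12 of the 65 windows (18.5%), against 3.27% of 27305 genes with a window. The ETS motif lay in 18 (27.7%, against 10.7% of all genes) and the YY1 motif in 7 (10.8%, against 1.85%). The YY1 genes were NDUFA6, NDUFA7, NDUFA9, NDUFS4 and NDUFS7 of complex I, UQCRC1 of complex III and ATP5PF. Any of these 3 motifs lay in 29 windows (44.6%, against 14.6% of all genes). The XBP1 element TGACGTGG was in 0 of the 65 windows, against 0.795% of all genes, and the hypoxia core was in 17 (26.2%, against 21.6%). Among the genes that fell in T47D, 17 of 31 with a window held an NRF1, ETS or YY1 motif (54.8%), and among the others 12 of 34 did (35.3%); this difference was not tested. A match is a string of letters and not a measured binding site, and a window without one says nothing of the factor.

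**Figure D2:**
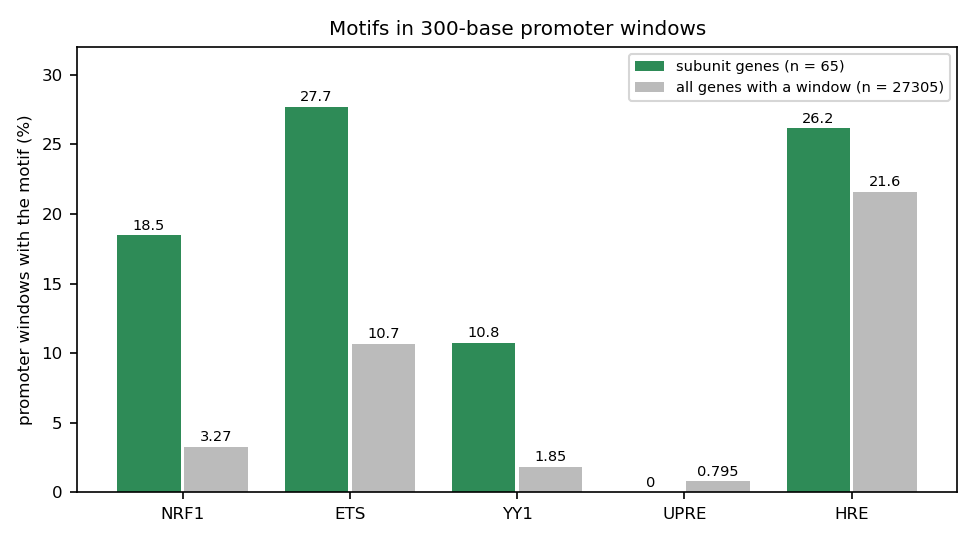
Share of 300-base promoter windows (percent, from 0) that hold each motif on either strand, for the 65 subunit genes with a window and for all 27305 genes. NRF1, ETS and YY1 motifs were in 18.5%, 27.7% and 10.8% of the subunit windows against 3.27%, 10.7% and 1.85% of all windows, and the XBP1 element was in none of the 65.

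Complex I held the most falls in T47D, with 4 of its 5 nuclear-encoded core subunits measured and 13 of its 27 accessory subunits lower. NDUFA7, an accessory subunit, stood at 10.23 and 10.16 in T47D shXBP1 cells, against 11.09 and 11.23 in T47D shCtrl cells. In MDA-MB-231 it stood at 11.62 and 11.51 in shXBP1 cells, against 11.98 and 11.95 in shCtrl cells. The groups did not overlap in either line. The log2 difference was -0.96 ± 0.09 in T47D (SE, n = 2 against 2; 1.95-fold lower, adjusted p = 0.000234, limma) and -0.40 ± 0.09 in MDA-MB-231 (1.32-fold lower, adjusted p = 0.0241). A dimmer second probe set of NDUFA7 gave 0.34 in MDA-MB-231 (adjusted p = 0.0653) and 0.10 in T47D (adjusted p = 0.586), so the fall rests on the brighter one.

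The flavin and the iron-sulphur clusters through which electrons pass are held by some of the core subunits. NDUFV2, which holds such a cluster, stood at 10.85 and 10.84 in T47D shXBP1 cells, against 11.50 and 11.56 in T47D shCtrl cells, and the fall was 1.60-fold (adjusted p = 0.000683, limma). In MDA-MB-231 it stood at 11.83 and 11.75 with shXBP1 and at 11.74 and 11.76 with shCtrl, values that overlap. By its brighter probe set, NDUFS7, which holds the last cluster before ubiquinone, fell in both lines. It stood at 9.72 and 9.66 in T47D shXBP1 cells, against 10.25 and 10.28 in T47D shCtrl cells (1.49-fold, adjusted p = 0.00184), and at 10.90 and 10.87 in MDA-MB-231 shXBP1 cells, against 11.26 and 11.38 in MDA-MB-231 shCtrl cells (1.35-fold, adjusted p = 0.0127). NDUFS3 and NDUFV1 fell in T47D by 0.43 and 0.36 on the log2 scale (adjusted p = 0.0059 and 0.0241). NDUFS1, the remaining nuclear-encoded core subunit measured, had a difference of -0.16 in T47D and did not pass (adjusted p = 0.215).

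Among the other accessory subunits, NDUFB10 and NDUFB6, both of the membrane arm, each fell 1.53-fold in T47D (adjusted p = 0.00146 and 0.00185, limma). NDUFB6 stood at 12.03 and 11.98 in T47D shXBP1 cells, against 12.65 and 12.58 in T47D shCtrl cells, and at 12.70 and 12.86 in MDA-MB-231 shXBP1 cells, against 13.17 and 13.16 in MDA-MB-231 shCtrl cells. By its brighter probe set it was thus lower with shXBP1 in both lines (MDA-MB-231: 1.31-fold, adjusted p = 0.0268). By its brightest probe set NDUFA2 also fell in both lines, by 0.41 in MDA-MB-231 (adjusted p = 0.0169) and by 0.52 in T47D (adjusted p = 0.00317) on the log2 scale. NDUFA6 fell in MDA-MB-231 by 0.35 (adjusted p = 0.024), with -0.23 in T47D (adjusted p = 0.0759). Its 2 probe sets gave -0.50 and -0.23 in T47D, and 1 of them was called when each was taken alone. NDUFB5 showed next to no difference within a line: 13.50 and 13.51 in T47D shXBP1 cells, against 13.48 and 13.46 in T47D shCtrl cells.

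The accessory subunits NDUFA8, NDUFS6, NDUFC1, NDUFA9, NDUFA1, NDUFB2, NDUFA13 and NDUFB8 also fell in T47D, by 0.55 for NDUFA8 (adjusted p = 0.00232, limma) and less for the others, with 0.28 for NDUFB8 as the least (adjusted p = 0.0401). NDUFA8 stood at 11.51 and 11.42 in T47D shXBP1 cells, against 11.96 and 12.06 in T47D shCtrl cells. In MDA-MB-231 it stood at 12.09 and 12.13 with shXBP1 and at 11.99 and 11.98 with shCtrl. It was thus lower with shXBP1 in T47D and, without passing the test, higher with it in MDA-MB-231. NDUFS6, a zinc-binding subunit, stood at 11.87 and 11.88 in T47D shXBP1 cells, against 12.41 and 12.40 in T47D shCtrl cells, a gap many times that within either pair. Of the 14 accessory subunits that did not pass in T47D, 13 had a negative difference, the exception being NDUFB5, and NDUFA5 had the lowest, at -0.35 (adjusted p = 0.0635).

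NDUFB3, a small membrane-arm subunit, was the only subunit gene called in opposite directions. It stood at 11.75 and 11.79 in MDA-MB-231 shXBP1 cells, against 11.09 and 11.21 in MDA-MB-231 shCtrl cells, and at 11.05 and 11.15 in T47D shXBP1 cells, against 11.53 and 11.49 in T47D shCtrl cells. Neither pair of groups overlapped. It rose 1.54-fold in MDA-MB-231 (0.62 ± 0.09, adjusted p = 0.00338, limma) and fell 1.32-fold in T47D (-0.40 ± 0.09, adjusted p = 0.0113). The rise passed under all 16 alternatives, with differences between 0.52 and 0.68, while the T47D fall was lost without T47D shCtrl replicate 1 or without T47D shXBP1 replicate 1.

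Complex II, succinate dehydrogenase, was read through 3 of its 4 subunits. SDHA, the flavoprotein that oxidises succinate, stood at 11.58 and 11.60 in T47D shXBP1 cells, against 12.04 and 12.11 in T47D shCtrl cells. The fall was 1.40-fold (-0.48 ± 0.08, adjusted p = 0.00311, limma). In MDA-MB-231 it stood at 12.19 and 12.22 with shXBP1 and at 12.38 and 12.35 with shCtrl, a difference of -0.16 that did not pass (adjusted p = 0.236). The membrane anchors SDHC and SDHD, which bind ubiquinone, were called in different lines. SDHC stood at 11.95 and 11.86 in T47D shXBP1 cells, against 12.23 and 12.33 in T47D shCtrl cells (1.3-fold lower, adjusted p = 0.026), with overlapping values in MDA-MB-231. SDHD stood at 10.97 and 11.10 in MDA-MB-231 shXBP1 cells, against 11.33 and 11.46 in MDA-MB-231 shCtrl cells (1.28-fold lower, adjusted p = 0.0363), with a difference of -0.09 in T47D (adjusted p = 0.57).

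In complex III, which hands electrons from ubiquinol to cytochrome c, CYC1, UQCRQ, UQCR10, UQCR11 and UQCRC1 fell in T47D. CYC1, the cytochrome c1 subunit, stood at 11.83 and 11.76 in T47D shXBP1 cells, against 12.27 and 12.30 in T47D shCtrl cells, and fell 1.40-fold (-0.49 ± 0.09, adjusted p = 0.00463, limma). In MDA-MB-231 its values overlapped, at 12.75 and 12.62 with shXBP1 and at 12.72 and 12.80 with shCtrl. The small subunit UQCR10 was lower in both lines: 12.94 and 12.95 in T47D shXBP1 cells, against 13.31 and 13.36 in T47D shCtrl cells, and 13.26 and 13.25 in MDA-MB-231 shXBP1 cells, against 13.53 and 13.57 in MDA-MB-231 shCtrl cells. Its falls were 1.31-fold (adjusted p = 0.00832) and 1.22-fold (adjusted p = 0.0454). UQCRQ fell 1.32-fold in T47D (adjusted p = 0.00752), and UQCRB, another small subunit, had a difference of 0.01 there (adjusted p = 0.951). The 4 probe sets of UQCRB spanned -0.61 to 0.01 in T47D, and 0 of them were called.

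Complex IV, cytochrome c oxidase, had the fewest falls for its size, with its dim tissue-restricted genes and a pseudogene counted, of which none fell. Of its 10 widely expressed subunits, COX5B, COX7B, COX8A and COX6A1 fell in T47D and 6 did not pass. COX5B stood at 12.48 and 12.52 in T47D shXBP1 cells, against 12.90 and 12.96 in T47D shCtrl cells (1.34-fold lower, adjusted p = 0.00609, limma), and all 4 of its probe sets lay between -0.53 and -0.43. COX7B fell 1.31-fold in T47D (adjusted p = 0.00887). COX8A fell 1.25-fold in both lines (adjusted p = 0.0272 in T47D and 0.0414 in MDA-MB-231): it stood at 13.84 and 13.82 in T47D shXBP1 cells, against 14.19 and 14.11 in T47D shCtrl cells, and at 12.84 and 12.76 in MDA-MB-231 shXBP1 cells, against 13.08 and 13.17 in MDA-MB-231 shCtrl cells. COX4I1, the usual form of the subunit 4 that binds ATP as a regulator, differed by -0.01 in MDA-MB-231 (adjusted p = 0.963) and by -0.02 in T47D (adjusted p = 0.885). COX4I2, its isoform known to be raised by low oxygen, was dim in all groups, between 5.51 and 5.97, and was called in neither line.

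Both rises in T47D were of complex IV genes outside its widely expressed subunits. COX7A2L, also called SCAF1, which joins complexes III and IV in supercomplexes, stood at 12.20 and 12.32 in T47D shXBP1 cells, against 11.81 and 11.85 in T47D shCtrl cells. It rose 1.35-fold (0.43 ± 0.09, adjusted p = 0.00811, limma), a call lost without T47D shXBP1 replicate 2. COX7B2, an isoform known from testis, stood at 7.64 and 7.84 in T47D shXBP1 cells, against 6.77 and 6.89 in T47D shCtrl cells, and rose 1.88-fold (0.91 ± 0.13, adjusted p = 0.00133). In MDA-MB-231 it stood at 4.93 and 4.69 with shXBP1 and at 4.80 and 5.0 with shCtrl, below the median of all probe sets. The other tissue-restricted forms COX4I2, COX6A2, COX6B2, COX7A1 and COX8C passed in neither line. COX7A2, the common partner of COX7A1, differed by -0.14 in T47D (adjusted p = 0.265), and COX6B1 by -0.24 (adjusted p = 0.0864).

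In complex V, 4 of the 5 subunits of the F1 part, where ATP is made, fell in T47D. ATP5F1D, the delta subunit of the central stalk, stood at 9.51 and 9.65 in T47D shXBP1 cells, against 10.42 and 10.49 in T47D shCtrl cells, and fell 1.83-fold (-0.87 ± 0.09, adjusted p = 0.000331, limma). ATP5F1A, the alpha subunit, stood at 13.27 and 13.22 in T47D shXBP1 cells, against 14.02 and 14.00 in T47D shCtrl cells, and fell 1.7-fold (-0.77 ± 0.08, adjusted p = 0.000346). The beta and gamma subunits ATP5F1B and ATP5F1C fell 1.28-fold and 1.22-fold (adjusted p = 0.0157 and 0.0297). In MDA-MB-231 none of the 5 passed: ATP5F1D stood at 11.61 and 11.62 with shXBP1 and at 11.86 and 11.95 with shCtrl (adjusted p = 0.0716).

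The proton-carrying c ring is built from 1 protein encoded by ATP5MC1, ATP5MC2 and ATP5MC3. In T47D, ATP5MC1 fell 1.5-fold (adjusted p = 0.00163, limma) and ATP5MC3 1.27-fold (adjusted p = 0.0196), while ATP5MC2 differed by -0.05 (adjusted p = 0.757). ATP5MC1 stood at 11.27 and 11.26 in T47D shXBP1 cells, against 11.87 and 11.83 in T47D shCtrl cells. In MDA-MB-231 the 3 genes differed by -0.25, 0.08 and -0.24 in the order of their numbers, and none passed. Among 4 peripheral stalk genes only ATP5PF fell in T47D (1.36-fold, adjusted p = 0.00728): 12.96 and 13.04 in T47D shXBP1 cells, against 13.40 and 13.49 in T47D shCtrl cells. Among 5 other genes of the membrane part only ATP5ME fell there (adjusted p = 0.0305). By its brightest probe set ATP5IF1, the inhibitor that stops the enzyme from running backwards when respiration fails, did not pass in either line. Its differences were -0.29 in MDA-MB-231 (adjusted p = 0.0596) and -0.20 in T47D (adjusted p = 0.134). In T47D its 3 probe sets spanned -0.92 to -0.15, and 1 of them was called.

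**Figure D3:**
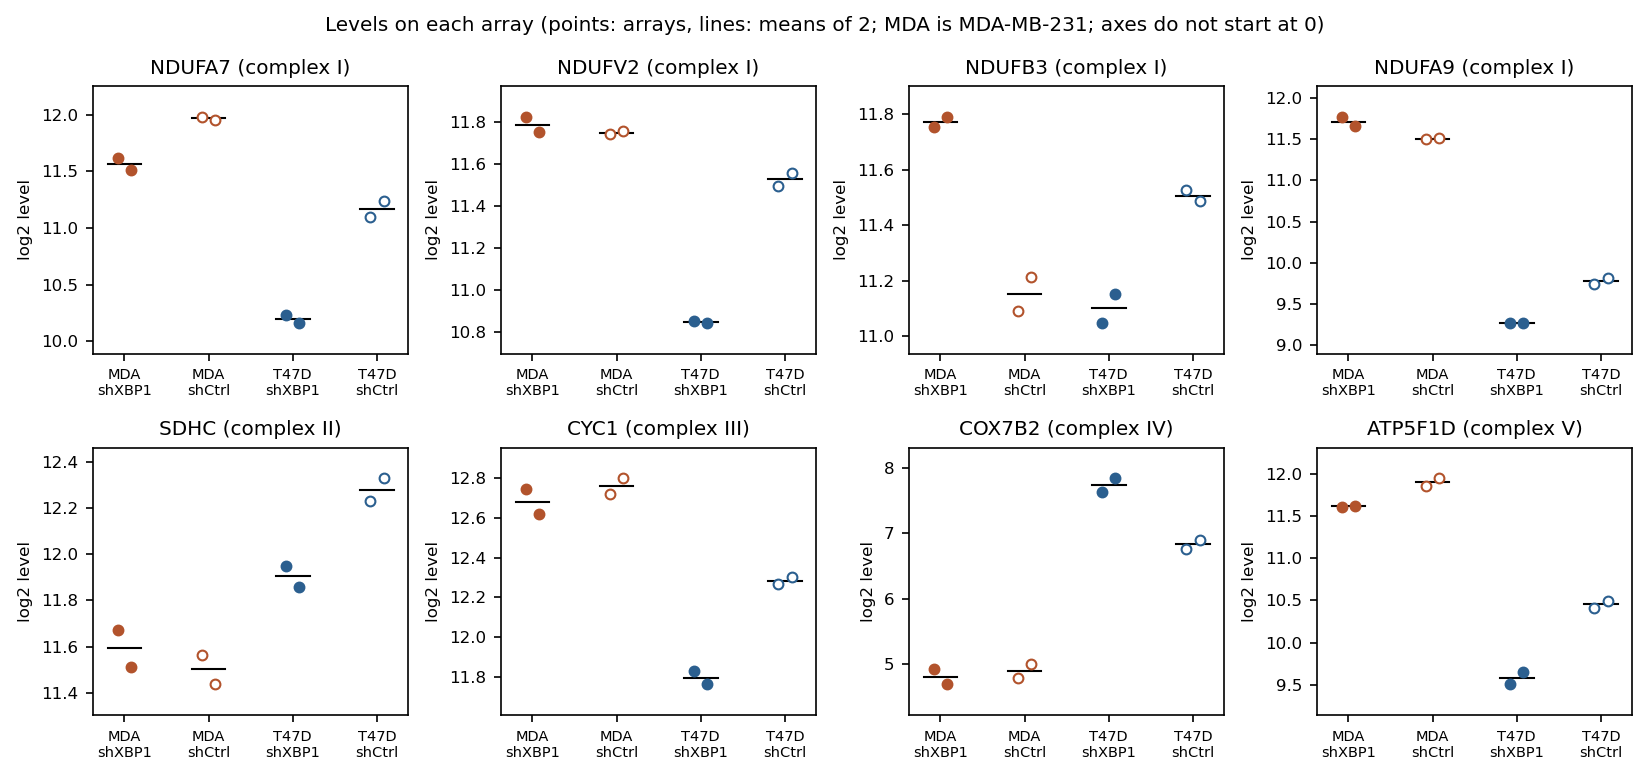
Log2 level on each of the 8 arrays for 8 subunit genes, by line, with shXBP1 arrays filled and shCtrl arrays open; short lines mark means of 2 arrays. In T47D the shXBP1 arrays lie below the shCtrl arrays for NDUFA7, NDUFV2, NDUFB3, NDUFA9, SDHC, CYC1 and ATP5F1D; in MDA-MB-231 they do so for NDUFA7 and ATP5F1D, and lie above them for NDUFB3 and NDUFA9.

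The falls in T47D were spread over the range of signal above the dimmest genes. Of the 30 genes with a mean level over 13, 11 fell, and of the 40 from 10 to 13, 25 fell. None of the 9 under 10 fell, and COX7B2 among them rose. The part of the signal level in these counts was not tested.

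Whether the lines responded differently was tested by subtracting the knockdown difference in T47D from that in MDA-MB-231. That difference was positive and called for 11 subunit genes (13.9%) and negative for 1, where 13.0% of all genes were called positive and 11.8% negative. The share was thus near that of all genes for positive calls. In a fit of only the genes with a mean level of 7 or more, 27.8% were called positive and 24.5% negative. That fit called 20 of the 71 subunit genes at that level positive, again near the share of all genes fitted. The 11 were NDUFB3, NDUFV2, NDUFA9, NDUFA8, NDUFA7, NDUFB10 and NDUFS6 of complex I, SDHC, CYC1, ATP5F1A and ATP5F1D. The 1 was COX7B2 at -0.99 ± 0.18 (adjusted p = 0.00607, limma), whose MDA-MB-231 levels lie below the median of all probe sets, where a response may not be measurable, so the value rests on its rise in T47D. NDUFB3 had the largest, at 1.02 ± 0.13 (adjusted p = 0.00122), and NDUFV2 followed at 0.72 ± 0.12 (adjusted p = 0.00382). NDUFA9, a subunit near the ubiquinone site, stood at 11.77 and 11.65 in MDA-MB-231 shXBP1 cells, against 11.50 and 11.51 in MDA-MB-231 shCtrl cells, and at 9.27 and 9.27 in T47D shXBP1 cells, against 9.74 and 9.82 in T47D shCtrl cells. Its difference of effects was 0.71 ± 0.12 (adjusted p = 0.00488). NDUFA8 gave 0.67 ± 0.12 (adjusted p = 0.00617) and ATP5F1A 0.64 ± 0.11 (adjusted p = 0.00553). SDHC and CYC1 passed narrowly (adjusted p = 0.0492 and 0.0497), and their calls were lost under most alternatives, with adjusted p up to 0.159 for each. For the remaining 67 genes no difference between the lines was shown, which does not mean that they responded alike: the median standard error of such a difference over all genes was 0.168.

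The lines also differed in their levels with the same hairpin. With shCtrl, 27 subunit genes were higher and 21 lower in MDA-MB-231 than in T47D, where 49.0% of all genes were called, 23.7% higher and 25.2% lower. With shXBP1 it was 37 higher and 13 lower, where 50.8% of all genes were called, 25.9% higher and 25.0% lower. In fits of only the 9849 genes with a mean level of 7 or more, 79.0% were called with shCtrl, 39.3% higher and 39.7% lower. With shXBP1, 80.2% of them were called, 40.4% higher and 39.8% lower. Both comparisons use different arrays but share the lines, and 26 genes were higher and 13 lower with both hairpins. A further 10 were higher with shXBP1 and not called with shCtrl. The median difference was 0.10 with shCtrl (0.01 over all genes) and 0.21 with shXBP1 (0.06 over all genes).

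NDUFA9 had the largest excess in MDA-MB-231: 1.73 with shCtrl (3.31-fold, adjusted p = 1.45e-06, limma) and 2.44 with shXBP1 (5.42-fold, adjusted p = 2.41e-07). ATP5F1D was 2.73-fold higher with shCtrl and 4.10-fold higher with shXBP1, and UQCRC1, a core protein of complex III, was 2.36-fold and 3.11-fold higher. For these genes all 4 MDA-MB-231 arrays lay above all 4 T47D arrays. NDUFA1 and NDUFB2 of complex I were 2.44-fold and 2.32-fold higher with shCtrl. NDUFB5 went the other way, at -1.17 with shCtrl and -1.18 with shXBP1, as did COX8A at -1.03 with each hairpin. SDHD was 1.77-fold lower in MDA-MB-231 with shCtrl and 2.13-fold lower with shXBP1, and SDHC differed by -0.78 and -0.31 on the log2 scale, while SDHA was higher by 0.29 and 0.61. The 3 subunits of complex II measured thus did not differ between the lines in the same direction. COX7B2 was lower in MDA-MB-231 with both hairpins, but its levels there lie below the median of all probe sets, so no fold is given.

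NDUFB3 was called in opposite directions here too: lower in MDA-MB-231 with shCtrl (-0.35, adjusted p = 0.0117, limma) and higher with shXBP1 (0.67, adjusted p = 0.000347). ATP5F1A was among those called only with shXBP1, at 0.54 against -0.10 with shCtrl. Within complex I, 11 genes were higher and 12 lower with shCtrl, and 16 higher and 6 lower with shXBP1. Complexes III, IV and V had 4, 6 and 5 genes higher with shCtrl, and 5, 6 and 9 with shXBP1. Genes of these complexes that were lower, among them UQCRC2, COX8A and ATP5MJ with shCtrl, are not in these counts. The complex V count with shCtrl includes ATP5MF, whose mean level of 5.64 lies below the median of all probe sets (5.90).

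**Figure D4:**
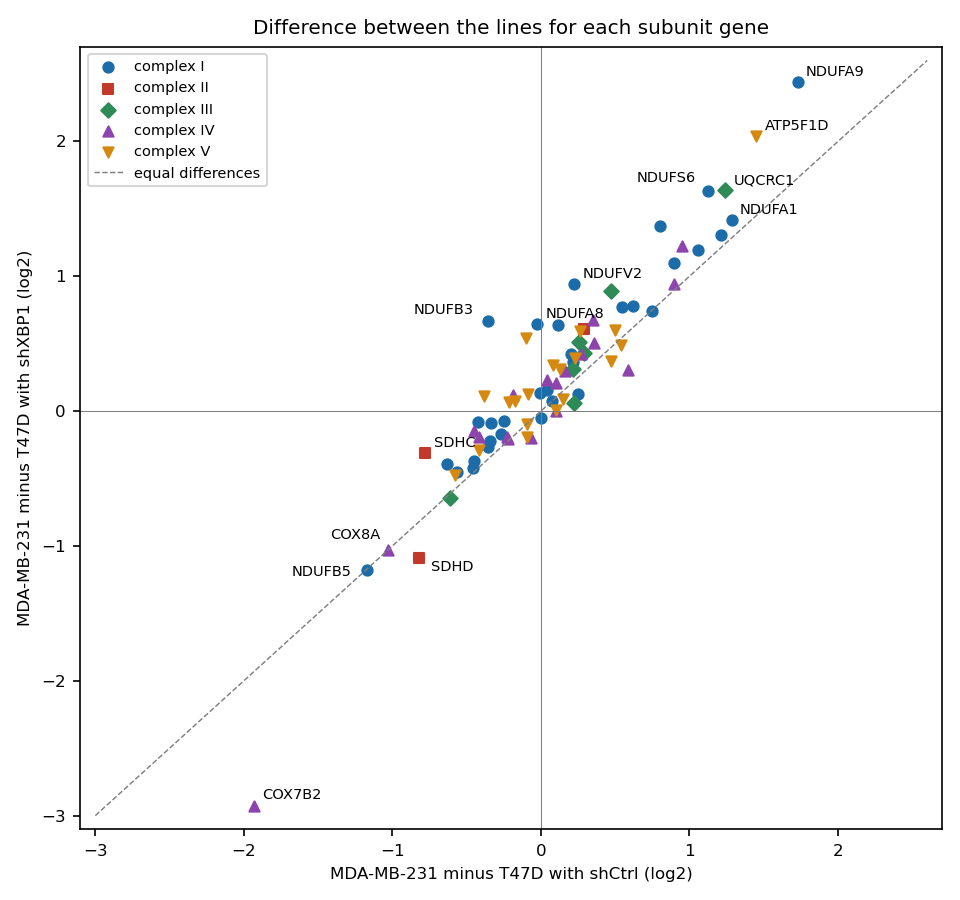
Log2 difference MDA-MB-231 minus T47D with shCtrl (x axis) and with shXBP1 (y axis) for the 79 subunit genes, marked by complex; the dashed line is equality. Points run along the line (Pearson r = 0.94 over 79 genes, a description), with NDUFA9 at the top right at 1.73 and 2.44, COX7B2 at the bottom left, where its MDA-MB-231 levels lie below the median of all probe sets, and NDUFB3 at -0.35 and 0.67.

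None of the subunits encoded in mitochondrial DNA, which lie outside the symbols above, fell with shXBP1 in either line. Of 13, 7 were measured: ND2, ND4 and ND6 of complex I, COX1, COX2 and COX3 of complex IV and ATP6 of complex V. In T47D none was called, none had an unadjusted p under 0.05, and the median difference was 0.01 (limma). However, ND2, ND4, COX1, COX2 and ATP6 stood between 14.80 and 15.51 on the T47D arrays, near the highest value on any array (15.61), where a rise may not be measurable. In MDA-MB-231, 5 of the 7 rose with shXBP1, where 10.6% of all genes rose. The 3' minus 5' difference of the ACTB control probe sets, a sign of RNA quality, was 0.893 and 1.10 on the MDA-MB-231 shXBP1 arrays, against 1.3 and 1.21 on the MDA-MB-231 shCtrl arrays, and its part in these rises was not tested. COX3 stood at 9.82 and 9.72 in MDA-MB-231 shXBP1 cells, against 8.01 and 8.69 in MDA-MB-231 shCtrl cells, a rise of 1.41 ± 0.20 (adjusted p = 0.00293). ND2 stood at 14.93 and 14.66 in MDA-MB-231 shXBP1 cells, against 13.66 and 14.10 in MDA-MB-231 shCtrl cells, a rise of 0.91 (adjusted p = 0.00652). ATP6, COX2 and COX1 rose by 0.72, 0.48 and 0.33 (adjusted p = 0.0186, 0.0111 and 0.0484), while ND4 at 0.10 and ND6 at -0.03 did not pass. The call of COX1 held only in the fit of all arrays and without MDA-MB-231 shXBP1 replicate 2, among the fits that left out 1 array. Of the 7, only ND6 is encoded on the light strand. The shCtrl replicates of MDA-MB-231 differed from each other by more than the other pairs did for COX3, ND2 and ATP6, replicate 1 being the lower. Without that array, without MDA-MB-231 shXBP1 replicate 1, or with only the MDA-MB-231 arrays fitted, 2 rather than 5 were called. The effect differed between the lines for COX3 (1.25, adjusted p = 0.0147), ND2 (0.90, adjusted p = 0.0206) and COX2 (0.46, adjusted p = 0.0359). For ND2 and COX2 that difference sets a rise against T47D levels near the top of the scale.

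**Figure D5:**
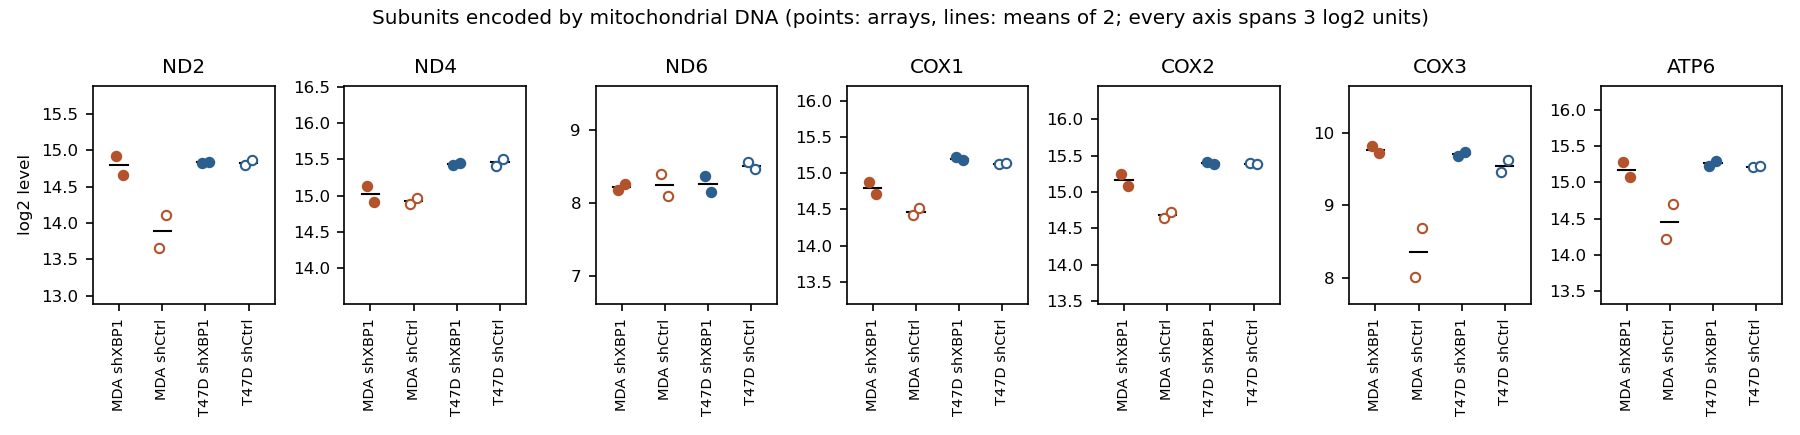
Log2 level on each array of the 7 subunits encoded in mitochondrial DNA, by line, with shXBP1 arrays filled and shCtrl arrays open; each axis spans 3 log2 units and MDA stands for MDA-MB-231. In MDA-MB-231 both shXBP1 arrays lie above both shCtrl arrays for COX3, ND2, ATP6, COX2 and COX1, and in T47D the hairpin groups lie close together.

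Genes that build or control the complexes were counted against the same background, 13.5% of all genes lower and 15.5% higher in T47D, and 6.68% lower and 10.6% higher in MDA-MB-231. In a fit of only the genes with a mean level of 7 or more, 28.2% were lower and 30.3% higher in T47D. In MDA-MB-231 these shares were 17.6% and 23.1%. Of 16 complex I assembly factors, 7 fell and 1 rose in T47D, with NUBPL, which delivers iron-sulphur clusters to complex I, at -1.82; in MDA-MB-231 0 fell and 2 rose, among them TIMMDC1 at 0.65 (limma). Of 21 complex IV assembly factors, 3 fell and 3 rose in T47D (14.3% each, near the shares of all genes) and 0 fell and 4 rose in MDA-MB-231. COX18, which inserts the COX2 protein in the membrane, was at -1.33 in T47D and 0.54 in MDA-MB-231, called in each, and SCO1, a copper chaperone, rose by 0.74 in MDA-MB-231. Of 10 factors for complexes II and III, 3 fell and 1 rose in T47D and 1 fell and 1 rose in MDA-MB-231. SDHAF2, which helps attach flavin to SDHA, rose by 1.01 in T47D and 0.30 in MDA-MB-231, the MDA-MB-231 call being lost whichever array was left out. Of the 4 factors for complex V, 2 fell and 1 rose in T47D and 1 fell and 0 rose in MDA-MB-231. FMC1 fell in both lines (-0.99 in T47D, -0.82 in MDA-MB-231), and in T47D ATPAF2 fell (-0.94) and TMEM70 rose (0.49).

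Regulators of respiratory genes did not fall in T47D: of 16, 9 rose and 0 fell, with a median of 0.37, where 15.5% of all genes rose (limma). GABPA, the DNA-binding part of GABP, stood at 9.87 and 9.97 in T47D shXBP1 cells, against 8.58 and 8.53 in T47D shCtrl cells, a rise of 1.36 (adjusted p = 0.00024). In MDA-MB-231 it stood at 8.72 and 9.11 with shXBP1 and at 8.98 and 8.96 with shCtrl, values that overlap. NRF1 stood at 7.59 and 7.53 in T47D shXBP1 cells, against 7.03 and 7.13 in T47D shCtrl cells (0.48, adjusted p = 0.00458), and at 7.46 and 7.55 in MDA-MB-231 shXBP1 cells, against 7.14 and 7.12 in MDA-MB-231 shCtrl cells (0.38, adjusted p = 0.0237). The NRF1 rise in T47D was lost when probe sets were averaged, and that in MDA-MB-231 when any MDA-MB-231 array or either T47D shXBP1 array was left out. PPARGC1B, a coactivator of respiratory genes, rose by 0.97 in T47D. In MDA-MB-231, 5 regulators rose and 3 fell, where 10.6% of all genes rose and 6.68% fell, with TFB2M and TFB1M, needed for mitochondrial transcription and ribosomes, at 1.32 and 1.15; both also rose in T47D, by 0.72 and 0.60. YY1 passed in neither line (adjusted p = 0.0604 in T47D and 0.131 in MDA-MB-231).

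The tricarboxylic acid cycle supplies NADH and succinate to complexes I and II. Of 16 of its enzymes measured, pyruvate dehydrogenase included, 10 fell and 0 rose in T47D, with a median of -0.45, and 1 fell and 1 rose in MDA-MB-231 (limma). In T47D 13.5% of all genes fell and 15.5% rose, and in MDA-MB-231 6.68% fell and 10.6% rose. SUCLA2, a subunit of succinyl-CoA synthetase, fell by 1.64 in T47D and IDH2, mitochondrial isocitrate dehydrogenase, by 0.87, with -0.10 and 0.11 in MDA-MB-231. PDHX, which holds the pyruvate dehydrogenase complex together, fell in both lines (-0.67 in T47D, -0.99 in MDA-MB-231). Of 16 mobile carriers and exchangers, 5 fell and 1 rose in T47D and 2 fell and 4 rose in MDA-MB-231. Of 11 mitochondrial genes known to respond to low oxygen, 2 fell and 4 rose in T47D, and 2 fell and 1 rose in MDA-MB-231. PDK1, which switches off pyruvate dehydrogenase, rose by 0.62 in T47D and fell by 1.17 in MDA-MB-231. BNIP3 and BNIP3L, receptors for removal of mitochondria, rose by 0.61 and 0.42 in T47D, and BNIP3L fell by 0.54 in MDA-MB-231. LONP1, a matrix protease, rose by 0.79 in T47D. Of 6 further genes of the system that the symbols leave out, cytochrome c (CYCS, also counted among the carriers) included, 1 fell and 1 rose in T47D and none was called in MDA-MB-231. The gene that fell was COXFA4, long called NDUFA4, at -0.52 (adjusted p = 0.00232), and the gene that rose was DMAC2L, at 0.76.

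The 79 genes had 153 probe sets in all, and 44 genes had several. All probe sets of a gene agreed in sign for 26 of the 44 in T47D and for 31 in MDA-MB-231. A called change opposite to the brightest probe set's difference was seen for 3 genes in T47D: ATP5MJ (0.47), NDUFA5 (0.38) and UQCRC2 (0.47). In MDA-MB-231 it was seen for NDUFC1 (0.62) and NDUFB7 (0.37). A dim probe set of ATP5F1C gave -1.53 in MDA-MB-231, where the brightest gave -0.03, and a dim probe set of NDUFA5 gave -1.69. The 7 probe sets of SDHC spanned -1.24 to 0.48 in T47D.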

How the data were processed

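RNA from 8 Affymetrix arrays, 2 in each of 4 groups of line and hairpin, was analysed. The authors deposited log2 values per probe set, made with RMA in affy 1.30.0 per the submitters' processing notes, which corrects background, quantile-normalises and summarises probes. The sources used here do not state which arrays were normalised together. GEO's platform annotation lists 42898 of the 54675 probe sets, and 41091 name a single gene; each of 19775 genes was read by the probe set with the highest mean. Array medians were 5.87 to 5.91, replicates correlated at 0.996 to 0.998, and the 3' minus 5' control difference was 0.893 to 1.30 for ACTB.

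Group means were fitted to all 8 arrays with limma 3.58.1 in R 4.3.3 (lmFit, eBayes), two-sided, with Benjamini-Hochberg adjustment over all genes; an adjusted p under 0.05 counts as called, and rose and fell follow its sign. The steps were tested on simulated data. The number of arrays limits the precision: the median standard error of a knockdown difference was 0.119. An exact test of 2 against 2 cannot go below 0.333, so none was used.

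The genes and lists were chosen with earlier results of these data known. Named for each comparison and complex were up to 4 called genes with the largest difference, or 2 with the smallest p where none was called, together with complex II, genes with a paralog, ATP5IF1 and genes called in opposite directions, and up to 3 called genes per list. Some genes outside this rule, such as NDUFS1, NDUFB5, UQCRB, YY1, ND4, ND6, COXFA4, DMAC2L and the markers, and some repeats of a named gene in another comparison, were named after their values were seen. Lists were assembly factors, regulators, carriers, tricarboxylic acid cycle enzymes, low-oxygen genes, mitochondrially encoded subunits, further genes of the system that the symbols leave out, and markers of luminal, mesenchymal, leukocyte and fibroblast cells; of 7 fibroblast markers, 2 were higher in MDA-MB-231 with each hairpin.

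Replicate numbers did not pair the samples: deviations of same-numbered arrays correlated at -0.07 to 0.04. Alternatives were other probe set rules, level filters, centring, repeated quantile normalisation, trended and robust fitting, fits of the compared arrays alone, a replicate block, a minimum difference and leaving out each array. Promoter windows are RefSeq's (GRCh38.p14).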

Additional observations from a re-analysis of the deposited data

Results flagged for a closer look

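The effect of the XBP1 hairpin differed between the lines for 12 of the 79 subunit genes (15.2%), by limma's test of the MDA-MB-231 difference less that in T47D. This test called 24.8% of all genes, and 52.3% of those with a mean level of 7 or more when only these were fitted. The fit of these genes called 27.8% of them positive, and 20 of the 71 subunit genes at that level. In the fit of all genes the test also called 20 other genes named above, which are not all the listed genes that differed. Among the subunits the differences were 1.02 for NDUFB3, 0.72 for NDUFV2, 0.71 for NDUFA9, 0.67 for NDUFA8, 0.57 for NDUFA7, 0.53 for NDUFB10, 0.51 for NDUFS6, 0.64 for ATP5F1A, 0.59 for ATP5F1D, 0.47 for SDHC, 0.41 for CYC1 and -0.99 for COX7B2, whose MDA-MB-231 levels lie below the median of all probe sets, so that the value rests on its T47D rise. A positive value means that the gene stood higher, relative to shCtrl, in MDA-MB-231 than in T47D.

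Over the whole lists, 9 of 16 complex I assembly factors were called positive and 1 negative, and 6 and 0 of 21 for complex IV. It was 1 and 1 of 10 for complexes II and III, and 1 and 0 of 4 for complex V. Regulators had 2 and 7 of 16, cycle enzymes 6 and 0 of 16, carriers 5 and 0 of 16, and low-oxygen genes 1 and 4 of 11. Of all genes, 13.0% were positive and 11.8% negative. Among the 20, assembly factors gave 0.87 for TIMMDC1, 1.2 for NUBPL, -0.71 for SDHAF2, 0.93 for SCO1, 1.87 for COX18 and 0.71 for ATPAF2. Regulators gave -1.44 for PPARGC1B, -1.42 for GABPA, 0.55 for TFB1M, 0.60 for TFB2M and -0.55 for YY1. The cycle enzymes IDH2 and SUCLA2 gave 0.97 and 1.54. Genes known to respond to low oxygen gave -0.82 for LONP1, -0.91 for BNIP3, -0.96 for BNIP3L and -1.79 for PDK1. Mitochondrially encoded subunits gave 0.90 for ND2, 0.46 for COX2 and 1.25 for COX3, the T47D levels of ND2 and COX2 being near the top of the scale, where a rise may not be measurable. With 2 arrays a group, no group was large enough for a test of a stray array.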

How the results depend on the processing

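Of 231 named differences recomputed under up to 16 settings each (3615 values in all), 3307 kept their side of the threshold, 223 lost the call, 80 gained it and 5 reversed. Among the 3307, 62 changed sign and were called in neither fit. The 5 reversals came with probe sets averaged: MDA-MB-231 minus T47D for ATP5IF1 with shCtrl (-0.38) and for ATP5MC2 with shXBP1 (0.0375), the T47D knockdown for COA1 (0.30) and TEFM (-0.0766), and the MDA-MB-231 knockdown for TEFM (-0.17). The cause was not tested.

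Shares of all genes called also moved with the setting. Differences of effect called positive were 13.0% as reported, 27.8% above a level of 7 and 16.0% with trended fitting. Those called negative were 11.8% as reported, 11.7% with probe sets averaged, 11.5% of probe sets taken alone and 14.3% with trended fitting. Rises in T47D were 15.5% as reported, 13.2% of probe sets taken alone and 30.3% above a level of 7. Counts of subunit genes changed as follows. Falls in T47D, 36, were 13 with a minimum difference of 0.5 and 17 to 38 with an array left out; rises there, 2, were 5 with each probe set taken alone, 1 above a level of 7 or with the minimum difference, and 1 to 3 with an array left out. Falls in MDA-MB-231, 8, were 14 with each probe set alone, 18 above the median of all probe sets, 20 above a level of 7, 22 with arrays centred, 30 with trended and robust fitting, 5 with the replicate block, 0 with the compared arrays alone or the minimum difference, and 0 to 5 with an array left out. Rises there, 1, were 3 with each probe set alone or trended fitting and 2 above a level of 7. Of all genes, 6.68% fell in MDA-MB-231 as reported, and 8.03% of probe sets taken alone. The share was 12.8% above the median, 17.6% above a level of 7 and 11.1% with arrays centred. It was 9.43% with trended fitting, 5.65% with the block and 3.42% with the compared arrays alone. Rises were 10.6% as reported, 7.80% of probe sets alone, 13.3% with trended fitting and 23.1% above a level of 7. Differences of effect called negative, 1, were 2 with probe sets averaged, 7 with each alone and 4 with trended fitting; those called positive, 11, were 20 above a level of 7, 25 with trended fitting and 6 to 12 with an array left out. Between lines with shCtrl, 27 higher and 21 lower were 16 and 9 with the minimum difference, and 20 to 27 and 15 to 20 with an array left out. With shXBP1, 13 lower were 5 with the minimum difference and 8 to 13 with an array left out, and 37 higher were 31 to 37. The 5 mitochondrially encoded rises in MDA-MB-231 were 2 with the compared arrays alone and 2 to 5 with an array left out.

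The replicate block could change no direction, since every group held an array of each replicate number and the estimates stay the same. It can only change the spread. With it, 220 of 231 named differences kept their side of the threshold and 11 lost the call, with 31 falls in T47D, where 12.6% of all genes fell. Centring moved the median of all genes from 0.01 to 0.12 between the lines with shCtrl and from 0.03 to -0.07 in the MDA-MB-231 knockdown, where the share of all calls that were rises was 40.6%, against 61.3% as reported; it was 51.2% with quantile normalisation repeated and 49.3% with each probe set alone. The medians of the subunit genes were then -0.21 in MDA-MB-231 and -0.29 in T47D. The planned move of NDUFA4 between complexes I and IV was not run, because the gene, annotated as COXFA4, is not among the 79. A difference of effects needs all 8 arrays. The 9 subunit genes with a mean level under 10 and the 2 arrays a group limit what could be detected.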
